A study of Mus musculus with 10 samples.

Results

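The response of resting splenic B-cells to lipopolysaccharide (LPS) was examined in 4 small RNA libraries of wild-type (wt) mice, out of 10 libraries in the series. They comprise 2 non-stimulated libraries (NS1 and NS2) and 2 libraries of cells stimulated with 5 µg/ml LPS (LPS1 and LPS2), and were taken by the column names of the count table. The wt mice were of the 129 strain, of both sexes and 8 to 12 weeks old per the methods of the study, and carried no deletion or transgene. CD43- cells, the fraction of spleen left when activated B-cells and most non-B cells that carry CD43 are removed, were cultured for 2 days per the labels, in medium alone or with LPS. The methods of the study describe cells taken before stimulation instead, for long RNA. If that held for small RNA, the effect of LPS and that of culture cannot be told apart. Cells of 2 mice were pooled for each library, so p-values measure the spread between pooled libraries. That spread includes a split of the non-stimulated libraries, described below, which another genotype shares. The series also holds libraries of mice lacking the 3'RR (the regulatory region downstream of the immunoglobulin heavy chain locus), in both conditions and with 2 libraries each, and 2 libraries of EµMAR-deficient mice. The 3'RR-deficient libraries lent the estimate of spread and are compared with wt in 1 test.

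LPS is a component of the bacterial outer membrane that B-cells sense through Toll-like receptor 4. It makes resting B-cells divide, differentiate towards antibody-secreting cells and switch immunoglobulin class. MicroRNAs are short RNAs cut from a hairpin precursor, whose 5p and 3p arms can each enter an Argonaute protein and repress messenger RNAs that pair with the seed, bases 2 to 8 of the microRNA. Several are known to respond to Toll-like receptor signals in lymphocytes, among them miR-155, which is needed for normal germinal centre and class-switched antibody responses, miR-146a, a brake on NF-κB signalling, and miR-21. Others, such as miR-150 and miR-181, are features of resting or developing lymphocytes.

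The microRNAs on which the results turn are shown first, with the seed in capitals. The sequences are those of RefSeq on GRCm38.p6, where 1093 of 1302 mature microRNA rows found a match. The first 6 are the arms of miR-155 and miR-148a and the relatives of miR-148a that have its seed, and the next 8 are miR-5121, miR-34a-5p and the microRNAs that share the seed of miR-17-5p. The last 6 are single microRNAs that were lower in both LPS libraries, and miR-223-3p among them is a marker of myeloid cells.
miR-155-5p: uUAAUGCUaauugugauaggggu
miR-155-3p: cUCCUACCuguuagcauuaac
miR-148a-5p: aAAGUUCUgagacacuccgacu
miR-148a-3p: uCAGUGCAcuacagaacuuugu
miR-148b-3p: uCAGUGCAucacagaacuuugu
miR-152-3p: uCAGUGCAugacagaacuugg
miR-5121: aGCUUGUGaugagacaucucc
miR-34a-5p: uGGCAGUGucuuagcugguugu
miR-17-5p: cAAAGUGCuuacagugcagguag
miR-20a-5p: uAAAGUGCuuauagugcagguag
miR-20b-5p: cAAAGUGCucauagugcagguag
miR-106a-5p: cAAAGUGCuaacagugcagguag
miR-106b-5p: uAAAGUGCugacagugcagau
miR-93-5p: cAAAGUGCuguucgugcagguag
miR-125a-5p: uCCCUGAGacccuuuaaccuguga
miR-125b-5p: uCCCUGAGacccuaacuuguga
miR-99a-5p: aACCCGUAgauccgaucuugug
let-7b-5p: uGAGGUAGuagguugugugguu
let-7c-5p: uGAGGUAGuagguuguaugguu
miR-223-3p: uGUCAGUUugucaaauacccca
The hairpins of miR-155 and miR-148a follow, with the mature arms in capitals, because both arms of each were higher with LPS and the hairpins were counted as rows of their own. The 5p arm stands first in both.
Mir155: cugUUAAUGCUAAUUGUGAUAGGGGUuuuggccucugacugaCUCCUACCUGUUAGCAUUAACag
Mir148a: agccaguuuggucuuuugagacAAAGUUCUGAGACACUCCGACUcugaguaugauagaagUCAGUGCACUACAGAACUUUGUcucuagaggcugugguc

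The 4 libraries held 15073103 (NS1), 3482540.0 (NS2), 6054137 (LPS1) and 11247124 (LPS2) counts. MicroRNA rows took 82.1% of the counts in NS1, 63.9% in NS2, 68.5% in LPS1 and 74.3% in LPS2, so the LPS libraries lay between the non-stimulated ones. Counting error is small at this depth (Wilson 95% confidence interval 63.86% to 63.96% for the share in NS2), and intervals and floors here cover counting error only. The non-stimulated pools stood apart from each other. Across the 720 microRNA rows tested, the SD of the log2 ratio of NS2 to NS1 was 1.97 and that of LPS2 to LPS1 1.17, and 222 rows differed by more than 4-fold between NS1 and NS2 against 71 between LPS1 and LPS2. Rows over 4-fold lower in NS2 had a median GC content of 40.9%, and those over 4-fold higher in NS2 had 58.7%. The 3'RR-deficient non-stimulated libraries split in the same way: the log2 ratios of replicate 2 to 1 correlated across the microRNA rows with r = 0.666 between the genotypes (r = 0.111 for the LPS libraries), which is a description over rows. The non-stimulated libraries of the same number are thus not independent between the genotypes. Each microRNA is set against both non-stimulated libraries. In these bulk libraries fewer cells of a type and less of an RNA per cell cannot be told apart.

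**Figure D1:**
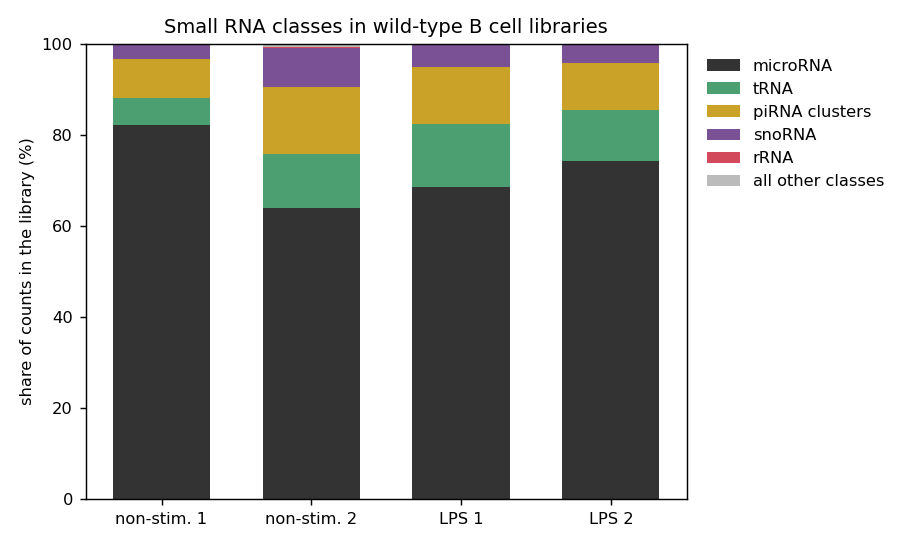
Share of counts in each small RNA class (percent, vertical axis) in the 4 wt libraries (horizontal axis, 1 bar each). MicroRNA takes between 63.9% (NS2) and 82.1% (NS1), and the LPS libraries lie between those values.

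The most abundant microRNAs differed between the libraries. In NS1 the order was led by miR-142a-5p (12.8% of the microRNA counts), miR-21a-5p (8.51%), let-7g-5p (7.11%), miR-26a-5p (6.86%) and let-7f-5p (6.67%). NS2 was led by miR-92a-3p (12.4%), let-7a-5p (8.43%), miR-150-5p (7.60%), let-7f-5p (6.74%) and miR-181a-5p (5.92%). Only let-7f-5p stood in the first 5 of both. In LPS1 miR-21a-5p held 24.4%, followed by miR-146a-5p (10.4%), miR-92a-3p (5.52%), miR-142a-5p (4.67%) and miR-155-5p (3.18%). LPS2 had miR-21a-5p (19.4%), let-7f-5p (6.11%), let-7a-5p (5.76%), miR-146a-5p (5.75%) and miR-92a-3p (5.66%). The first 10 microRNAs took between 59.6% (NS2) and 63.8% (LPS2) of the microRNA counts.

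Which microRNAs change with LPS was asked of 720 microRNA rows, 607 of mature arms and 113 of hairpins. The activation-linked miR-155-3p, miR-148a-5p, miR-5121 and the hairpins of miR-148a and miR-106b rose, and no row fell. These 5 calls are 0.694% of the rows (edgeR's quasi-likelihood test, Benjamini-Hochberg adjusted p under 0.05), and 156 rows had an unadjusted p under 0.05, 91 higher (12.6%) and 65 lower (9.03%). Without a test, both LPS libraries lay above both non-stimulated libraries in 31.5% of the rows (183 mature and 44 hairpin rows) and below both in 20.8% (141 and 9), and the groups overlapped in 343. When the microRNA rows were tested within the whole table, together with the other small RNA classes, none passed (smallest adjusted p = 0.166). Without NS2 or without LPS1 there were 0 calls, and without NS1 there were 64, 35 of them higher.

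miR-155-3p, the rarer arm of miR-155 (chr16:84714182-84714202, plus strand, in an exon of Mir155hg), had the smallest p together with miR-148a-5p. It counted 9.44 (NS1) and 5.29 (NS2) CPM without LPS and 433 (LPS1) and 504 (LPS2) CPM with LPS, where CPM is the usual depth-scaled count, here relative to the microRNA counts after TMM scaling. Both LPS libraries thus stood far above both non-stimulated ones (adjusted p = 0.00999), and the fitted log2 difference was 5.97 with an SE of 0.82. The main arm, miR-155-5p (chr16:84714143-84714165), went from 5342 and 7320.4 to 27924 and 57240.0 CPM. Its groups did not overlap either, but its log2 fold change of 2.75 (SE 0.73) did not pass (adjusted p = 0.0833). Reads of the hairpin itself numbered 0.578, 0.331, 29.9 and 9.85 CPM in NS1, NS2, LPS1 and LPS2, with an adjusted p of 0.0507. The 3p arm made up 0.176% and 0.0722% of the counts of both arms without LPS and 1.53% and 0.873% with LPS.

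miR-148a, which lies outside any annotated host gene, gave 2 of the calls. The 5p arm (chr6:51269867-51269888, minus strand) counted 11.7 and 8.60 CPM in NS1 and NS2 and 723 and 401 CPM in LPS1 and LPS2, without overlap (log2 fold change 5.79, SE 0.81, adjusted p = 0.00999). The hairpin (chr6:51269812-51269910) had no count in either non-stimulated library and 53.0 and 19.7 CPM with LPS, at least 56.8-fold higher against a floor of 3 counts per library (adjusted p = 0.0216). Far more abundant was the 3p arm, known to target DNA methyltransferase 1 and to act in B-cell tolerance. It stood at 2906 and 239 CPM in NS1 and NS2 and at 18351 and 21287 CPM in LPS1 and LPS2. Here the LPS libraries lay close together and the non-stimulated ones far apart, and the log2 fold change of 3.66 (SE 1.19) did not pass (adjusted p = 0.122). miR-148b-3p and miR-152-3p, which share the seed of miR-148a-3p but come from other chromosomes, overlapped between the groups. miR-148b-3p counted 2399.8, 6902, 2062 and 2576 CPM in NS1, NS2, LPS1 and LPS2, and miR-152-3p 64.1, 18.5, 32.2 and 31.2 CPM.

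miR-5121 (chr7:45126925-45126945, minus strand) counted 113 and 97.2 CPM in NS1 and NS2 and 2791 and 1334 CPM in LPS1 and LPS2. The non-stimulated libraries were nearly equal and both LPS libraries were at least 10-fold higher (log2 fold change 4.30, SE 0.75, adjusted p = 0.0252). This call was lost without LPS2 (adjusted p = 0.0590) and in a fit of the 4 wt libraries alone (adjusted p = 0.0553). Its position falls within Snord33, a small nucleolar RNA gene inside the ribosomal protein gene Rpl13a (intronic in the coding transcripts, exonic in transcripts that retain the intron), so that reads of the 2 RNAs cannot be told apart. The Mir106b hairpin (chr5:138165737-138165818, minus strand, in an intron of the replication gene Mcm7) counted 1.45 and 0.331 CPM without and 82.7 and 56.0 CPM with LPS (log2 fold change 6.10, SE 1.02, adjusted p = 0.0235), and this call too was lost without LPS2 (adjusted p = 0.0590). The mature miR-106b-5p of that hairpin did not pass, with 1604, 185, 2265 and 2307 CPM in NS1, NS2, LPS1 and LPS2. In each of the 5 called rows both LPS libraries lay above both non-stimulated ones.

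There were 4 further rows just short of significance, each with an adjusted p of 0.0507. Beside the Mir155 hairpin these were miR-135a-5p (0.964, 0, 36.9 and 126 CPM in NS1, NS2, LPS1 and LPS2), miR-135b-5p (0.578, 0, 20.4 and 73.9 CPM) and miR-298-5p (19.5, 26.1, 253 and 184 CPM). miR-135a-5p and miR-135b-5p were almost absent without LPS, and reads could be shared between these close relatives.

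**Figure D2:**
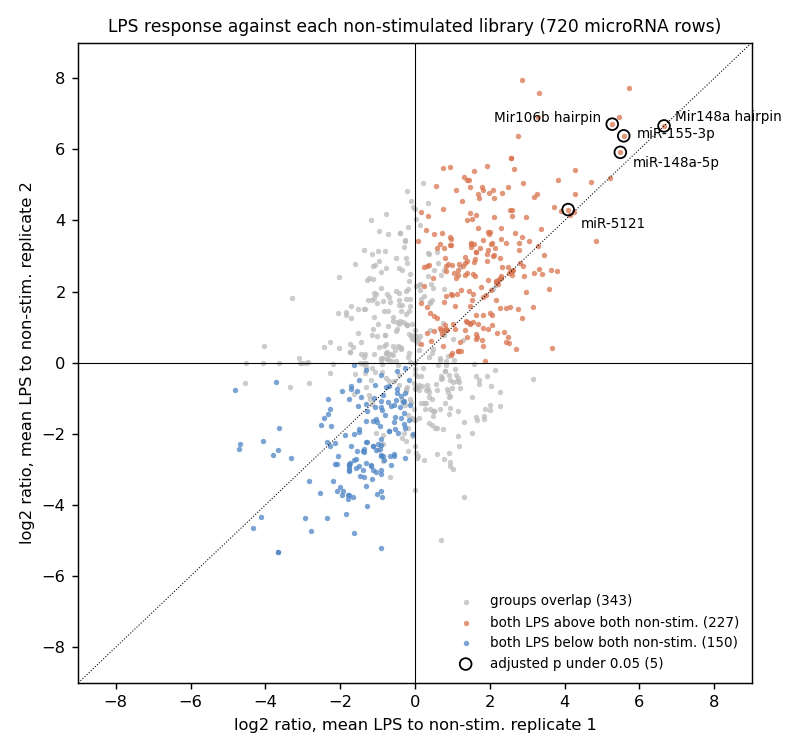
Log2 ratio of the mean LPS level to NS1 (horizontal axis) and to NS2 (vertical axis) for 720 microRNA rows, with a prior count of 2. The 5 called rows (circles) stand in the upper right quadrant close to the diagonal, and 243 rows have opposite signs on the axes.

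Set against each non-stimulated library by itself, the mean of the LPS libraries was at least 2-fold above NS1 in 215 rows and at least 2-fold above NS2 in 303. By a stricter rule, each LPS library by itself was at least 2-fold above both NS1 and NS2 in 133 rows. Each was at least 2-fold below both in 65. The sign of the ratio of the LPS mean depended on the non-stimulated library in 243 of 720 rows. In 42 of them the ratio was 2-fold or more in opposite directions, with 27 lower than NS1 and higher than NS2 and 15 the reverse. The most abundant of these was miR-142a-5p, a microRNA of all blood cells, with 152375 CPM in NS1, 7304 in NS2, 41064 in LPS1 and 61802 in LPS2. miR-30b-5p (3215, 386, 1491 and 1522 CPM), miR-29b-3p (569, 40.3, 294 and 249 CPM) and miR-32-5p (308, 12.9, 92.7 and 151.6 CPM) had the same form. The LPS libraries agreed within 2-fold in each of these 4 microRNAs, and NS1 and NS2 lay on opposite sides of them.

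Of 177 mature microRNAs of at least 100 CPM in a group, 94 did not overlap between the conditions, 49 higher (27.7%) and 45 lower (25.4%) with LPS, near the 31.5% and 20.8% over all microRNA rows. The 10 with the most positive log2 fold changes included the 3 called arms and miR-148a-3p. Among the rest, miR-17-5p and miR-18a-5p belong to the miR-17~92 cluster, a growth-promoting group that is known to act in B-cell development and lymphoma. miR-17-5p went from 348 and 76.7 CPM to 2488 and 2675 CPM, and miR-18a-5p from 92.6 and 9.92 to 585 and 521 CPM. In both, the LPS libraries lay close to each other and far above NS1 and NS2. miR-21a-3p, the rare arm of miR-21a, counted 16.2 and 5.62 CPM without and 161 and 157 CPM with LPS. miR-9-5p, which is known to repress the plasma cell regulator Blimp-1, counted 26.9 and 7.93 CPM without and 131 and 203 CPM with LPS. miR-218-5p, which is processed from 2 loci and lies in an intron of Slit2 at 1 of them, had 18.9 and 0.661 CPM without and 169 and 212 CPM with LPS. None of these passed the test, with adjusted p-values from 0.0507 (miR-298-5p) to 0.146 (miR-18a-5p).

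The 10 most negative log2 fold changes did not pass the test either, with adjusted p-values from 0.0766 to 0.114. miR-486a-5p (722, 2275, 83.4 and 38.7 CPM in NS1, NS2, LPS1 and LPS2) is known from red blood cells. The row of miR-486b-5p had almost the same counts, and both arise from opposite strands of 1 locus and share sequence. miR-125a-5p counted 41.3 and 159.7 CPM without and 7.64 and 4.26 CPM with LPS (log2 fold change -4.08, SE 0.96, adjusted p = 0.0766). Its relative miR-125b-5p had 83.9 and 119.7 CPM without and 8.06 and 16.5 CPM with LPS (log2 fold change -3.04, SE 0.79, adjusted p = 0.0833). Neither overlapped between the groups.

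let-7b-5p, of the let-7 family that is known to repress growth and Ras genes, counted 1507 and 6168 CPM without and 184 and 480.2 CPM with LPS. miR-223-3p, a marker of myeloid cells, had 1651 and 459 CPM without and 146 and 67.4 CPM with LPS. The stromal and muscle microRNA miR-143-3p had 767 and 147 CPM without and 63.8 and 13.8 CPM with LPS. In miR-1843a-3p (57.1, 184, 15.1 and 14.8 CPM), miR-328-3p (191, 849, 69.4 and 84.8 CPM) and miR-574-3p (89.1, 215, 29.5 and 22.8 CPM) the LPS libraries were close to each other and NS2 was the highest. The row of miR-1843a-3p lies within the small Cajal body RNA gene Scarna3b, and their reads cannot be told apart. Scarna3b itself counted 6.60 and 7.75 CPM without and 67.3 and 9.73 CPM with LPS, where CPM refers to all classes.

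**Figure D3:**
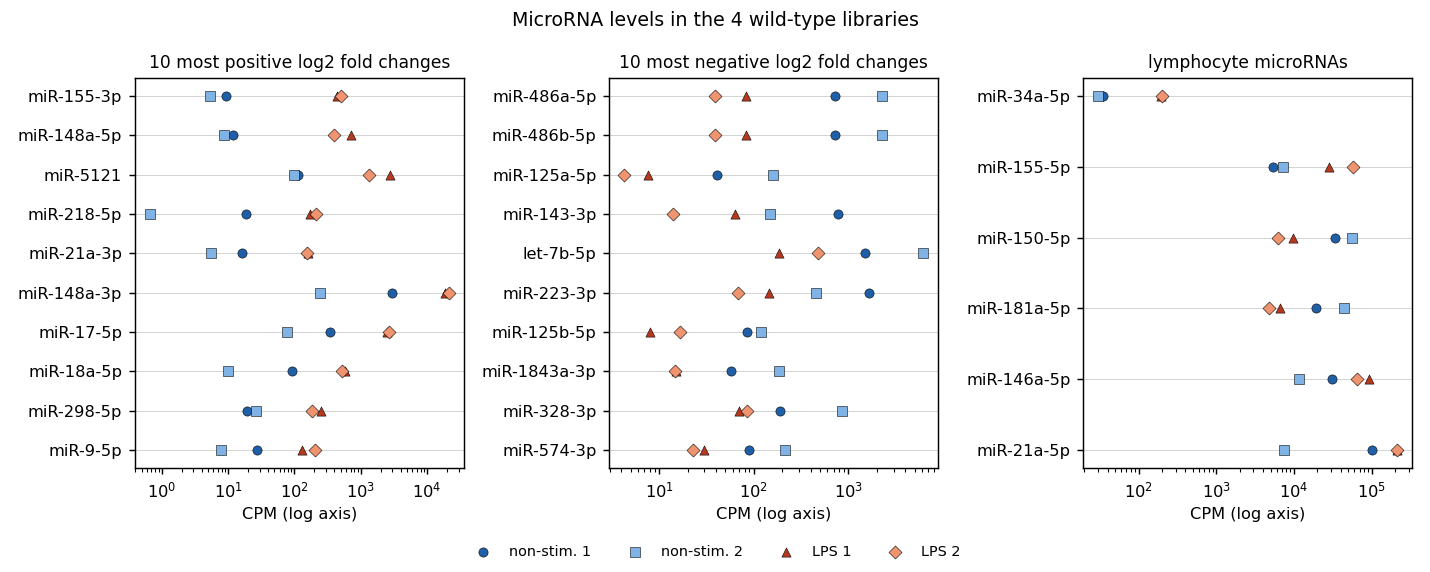
CPM of microRNAs (logarithmic horizontal axis) in each of the 4 wt libraries (symbols), for the 10 most positive and the 10 most negative log2 fold changes among microRNAs of at least 100 CPM whose groups do not overlap, and for 6 lymphocyte microRNAs. In every microRNA drawn both LPS libraries lie on the same side of NS1 and NS2. For the 10 most positive and the 10 most negative this was fixed by the choice of rows. The 6 lymphocyte microRNAs were picked by hand, and others that overlapped, such as miR-142a-5p and miR-146b-5p, are not drawn.

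The microRNAs linked to lymphocyte activation were higher with LPS in 9 of 13 rows tested, and none was lower in both libraries. Over all microRNA rows 31.5% were higher, and the median log2 fold change was 1.21 for the list and 0.07 over all rows. By edgeR's quasi-likelihood test miR-155-3p of the list passed, and 5 rows had an unadjusted p under 0.05. DESeq2's Wald test called 4 rows of the list, and edgeR without NS2 called 0. The most abundant, miR-21a-5p, counted 101445 CPM in NS1, 7485 in NS2, 214780.0 in LPS1 and 215400.0 in LPS2. The LPS libraries were almost equal, NS2 was far below NS1, and the log2 fold change of 1.98 (SE 1.23) did not pass (adjusted p = 0.368). miR-146a-5p had 31195 and 11573 CPM without and 91239.6 and 63964.5 CPM with LPS (log2 fold change 1.86, SE 0.83, adjusted p = 0.225). Its relative miR-146b-5p, which has the same seed, overlapped with 1562, 381, 1371 and 996 CPM in NS1, NS2, LPS1 and LPS2. In the miR-221 and miR-222 cluster, miR-222-3p was higher (397, 374, 752 and 856 CPM, log2 fold change 1.06) and miR-221-3p overlapped (1233, 1552, 1195 and 1293 CPM). miR-34a-5p, a p53 target known to limit B-cell development, counted 35.3 and 30.4 CPM without and 196 and 201 CPM with LPS. Its replicates lay close together in both conditions (log2 fold change 2.59, SE 0.66, adjusted p = 0.0833).

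The clusters of miR-17~92 and its paralogues were higher in 15 of 18 rows. Their median log2 fold change was 2.02 (1.56 against NS1 and 3.22 against NS2). None of the rows was called by edgeR's quasi-likelihood test, where 7 rows had an unadjusted p under 0.05, and 7 were called by DESeq2's Wald test. This and the counts of higher rows that follow stand against 31.5% over all microRNA rows. Exceptions were the abundant miR-92a-3p (27779, 91252, 48569 and 63006 CPM in NS1, NS2, LPS1 and LPS2) and miR-25-3p (19899, 22803, 20540.0 and 19635 CPM), and miR-106b-3p. By seed, all 6 microRNAs with AAAGUGC, printed above from miR-17-5p to miR-93-5p, were higher in both LPS libraries, with a median log2 fold change of 3.04. It was 2.28 against NS1 and 4.59 against NS2. They come from 3 clusters, on chromosomes 14, X and 5. Some differ by few bases, such as miR-17-5p and miR-106a-5p, and reads could be shared between them. The most abundant, miR-93-5p, counted 7998 and 3850 CPM without and 14695 and 13750 CPM with LPS, and miR-20a-5p 916 and 132 CPM without and 3222 and 4627 CPM with LPS. The 9 rows tested of the cluster in Mir17hg were all higher, and the 10 rows in the table summed to 1759 and 478.7 CPM without and 8076 and 9169 CPM with LPS. That sum leaves out miR-92a-3p and miR-19b-3p, which arise from this cluster and its X-linked paralogue and are placed at the paralogue alone. The rows of the paralogue, dominated by miR-92a-3p, summed to 28810.0, 91450.0, 52370.0 and 66390.0 CPM in NS1, NS2, LPS1 and LPS2, where the groups overlapped.

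Smaller groups stood in the same direction. The list of miR-9 and miR-135 was drawn up with earlier results of these data known, so its count is a description only. All 4 of its rows were higher, and all had an unadjusted p under 0.05. None was called by edgeR and 3 were called by DESeq2. Their median log2 fold change of 5.35 is imprecise, since miR-135a-5p, miR-135b-5p and miR-9-3p had no count in NS2. It was 11.38 without NS1, 4.53 without NS2 and 3.73 with the GC trend removed. All 4 of the miR-183 cluster list were higher as well (median 2.84, 0 called by edgeR with 3 at an unadjusted p under 0.05, and 2 called by DESeq2), among them miR-182-5p, known to be induced in activated lymphocytes, with 66.3 and 22.5 CPM without and 307 and 524 CPM with LPS. The long cluster of repeated microRNA genes in an intron of Sfmbt2 on chromosome 2 fell into 2 stretches separated by more than 10000 bases. In the first all 15 rows tested of 23 were higher, and in the second 26 of 28 rows tested of 36. The rows of the second stretch summed to 263.9 and 270.1 CPM without and 823.5 and 1077 CPM with LPS. These microRNAs (miR-466, miR-467 and miR-669) differ by few bases and their counts are uncertain between members.

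**Figure D4:**
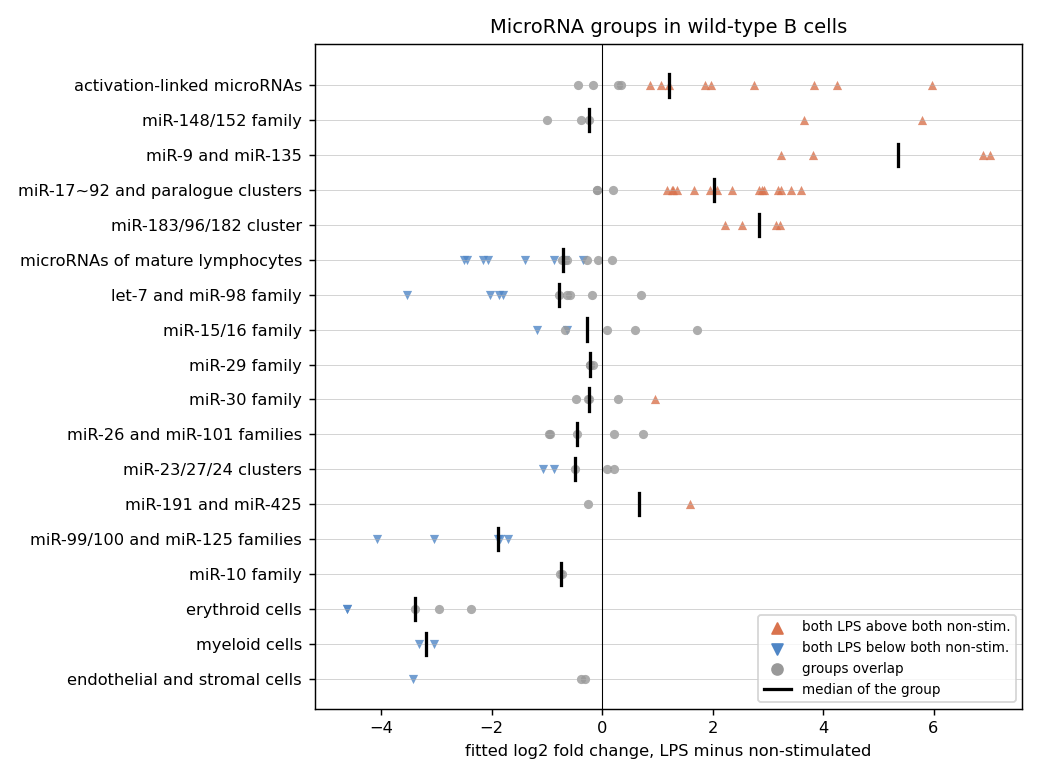
Fitted log2 fold change of LPS over non-stimulated (horizontal axis) for the members of 18 groups of microRNAs (rows), with the symbol showing whether the libraries of the groups overlap and a bar at the median. The 2 members of the endothelial and stromal group with no count in either LPS library are not drawn, nor is that group's median. The points of the miR-17~92 group and of miR-9 and miR-135 lie mostly to the right, and those of the miR-99/100 and miR-125 families to the left of 0. The groups were chosen with earlier results of these data known.

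MicroRNAs typical of mature lymphocytes were lower in 8 of 14 rows and higher in none, against 20.8% lower over all rows (median log2 fold change -0.70). None was called by edgeR's quasi-likelihood test, where 4 rows had an unadjusted p under 0.05, and 4 were called by DESeq2's Wald test. miR-150-5p, which restrains the transcription factor c-Myb, counted 34229.6 and 55923 CPM without and 9609 and 6256 CPM with LPS (log2 fold change -2.51, SE 0.70, adjusted p = 0.0906). miR-181a-5p, a regulator of antigen receptor signalling, counted 19289 and 43567 CPM without and 6698 and 4821 CPM with LPS (log2 fold change -2.45, SE 0.74, adjusted p = 0.110). In both, NS2 was the highest and LPS2 the lowest library, and the groups did not overlap. miR-342-3p had 4356 and 6195 CPM without and 2198 and 1798 CPM with LPS. The most abundant member, miR-142a-5p, overlapped as described above.

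The let-7 and miR-98 family was lower in 4 of 9 rows (let-7b, let-7c, let-7d and let-7e, all 5p) and overlapped in 5, against 20.8% lower over all rows, with a median log2 fold change of -0.78 that was -2.21 with the GC trend removed. The family had 0 calls by edgeR, 3 rows at an unadjusted p under 0.05, and 1 call by DESeq2. Its summed level was 294300.0 and 229200.0 CPM in NS1 and NS2 but 69780.0 in LPS1 and 233500.0 in LPS2, so that LPS1 lay far below LPS2. let-7c-5p counted 11405 (NS1), 29829 (NS2), 1760.0 (LPS1) and 8330.3 (LPS2) CPM, and let-7f-5p 79579, 49593.5, 18252 and 67908 CPM. In the abundant let-7a-5p, let-7f-5p and let-7g-5p only LPS1 lay below both non-stimulated libraries. All 5 rows of the miR-99/100 and miR-125 families were lower with LPS, against the same 20.8% (median log2 fold change -1.88, 0 called by edgeR with 4 at an unadjusted p under 0.05, and 4 called by DESeq2), among them miR-99a-5p, with 116 and 58.5 CPM without and 23.8 and 23.6 CPM with LPS. On chromosome 17, in the gene Spaca6, the cluster of miR-99b, let-7e and miR-125a was lower in all 5 rows tested (median -2.85).

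Over all microRNA rows the groups overlapped in 343 of 720. In other families they overlapped in all 3 rows of miR-29 and all 5 of miR-26 and miR-101, in 4 of 6 of miR-15/16, 4 of 5 of miR-30, 3 of 5 of miR-23/27/24 and both of miR-10. For instance, miR-16-5p counted 31142, 5286, 16586 and 22021 CPM in NS1, NS2, LPS1 and LPS2, and miR-26a-5p 81767, 18911, 21553 and 31135 CPM. In these 2 microRNAs NS1 was the highest and NS2 the lowest library. Of the pair on chromosome 9, miR-425-5p was higher (7220.3, 4085, 18732 and 15311 CPM) and miR-191-5p overlapped (29035, 19861, 19514 and 21751 CPM).

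Markers of other cells were examined next. By edgeR's quasi-likelihood test none was called, with 3 of 5 erythroid, 2 of 2 myeloid and 3 of 5 endothelial and stromal rows at an unadjusted p under 0.05, and DESeq2's Wald test called 3, 2 and 1 of them. Counts of lower rows stand here too against 20.8% over all microRNA rows. The 5 markers of red blood cells summed to 5417 and 4785 CPM in NS1 and NS2 and to 495.3 and 186.5 CPM in LPS1 and LPS2. With the reads that miR-486a-5p and miR-486b-5p share counted once, the sums were 4696 and 2512 CPM without and 411.9 and 147.8 CPM with LPS, and 2 of 4 rows had an unadjusted p under 0.05. Of these, miR-486a-5p and miR-486b-5p were lower in both LPS libraries, while miR-451a (3192, 204, 252 and 73.8 CPM), miR-144-3p and miR-144-5p overlapped. Both myeloid markers were lower, and summed to 1708 and 475.4 CPM without and 149.1 and 72.82 CPM with LPS. The 5 endothelial and stromal markers summed to 167.2 and 46.61 CPM without and 51.97 and 71.63 CPM with LPS. Among them miR-214-3p and miR-199a-5p had no count in either LPS library, miR-199a-3p was lower in both, and miR-126a-3p and miR-126a-5p overlapped. Their list had a median log2 fold change of -1.82 with the members at 0 set to their bound. The median log2 ratio was -2.10 against NS1 and 0.0 against NS2, so the direction rested on NS1. The lymphoid microRNA miR-150-5p was at 6256 CPM or more in all 4 libraries but was lower with LPS too, and it does not tell B-cells from other lymphocytes. The part of these other cells in the lower rows, miR-125 and let-7 included, was not tested.

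The arms of a hairpin were also compared. Of 151 pairs tested in both arms, both were higher with LPS in 36, both lower in 16, and 5 had opposite orders. The log2 fold change of the rarer arm exceeded that of the main arm by a median of 0.42. For miR-155 the difference was 3.22, for miR-146a 2.39, for miR-148a 2.13 and for miR-21a 1.86. The share of the rarer arm in the counts of both arms was above both non-stimulated libraries with LPS for miR-155 and miR-146a. For miR-21a it was 0.0160% in NS1, 0.0750% in NS2, 0.0747% in LPS1 and 0.0727% in LPS2, and for miR-148a 0.400%, 3.47%, 3.79% and 1.85%, so that in these the groups overlapped and NS1 alone was low. miR-17 went the other way, its 3p arm holding 26.8% and 65.3% of the counts of both arms without LPS and 13.0% and 9.72% with LPS. Among the 113 hairpin rows 44 (38.9%) were higher and 9 (7.96%) lower with LPS, against 183 and 141 of the 607 mature rows.

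The response was not shown to differ from that of 3'RR-deficient cells. The difference between the LPS responses passed in 0 of 720 rows by edgeR's quasi-likelihood test and in 0 by DESeq2, and 5 rows had an unadjusted p under 0.05 (0.694%). With the replicate number within each condition as a term shared by the genotypes, which takes up the common split of the non-stimulated libraries, 0 passed as well. These 5, named after their values were seen, were the Mir674 hairpin, miR-6546-5p, miR-7013-5p, miR-134-5p and miR-409-3p, and the highest value in a library of either genotype was 15.5 CPM (miR-6546-5p). For miR-155-3p the 3'RR-deficient libraries counted 9.87 and 4.04 CPM without and 221 and 283 CPM with LPS, and the log2 fold change in wt exceeded theirs by 0.81 (SE 0.95). The difference was 0.75 (SE 0.94) for miR-148a-5p, -0.14 (SE 0.91) for miR-5121 and 2.18 (SE 1.21) for the Mir106b hairpin, and for the Mir148a hairpin, with no count in the non-stimulated libraries of either genotype, it could not be estimated. For miR-5121 the 3'RR-deficient levels, at 11.6 and 9.23 CPM without and 295 and 156 CPM with LPS, were lower than in wt in both conditions.

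The other small RNA classes were tested in the fit of the whole table, where 3274 of their rows passed the filter. None passed the threshold (0%; smallest adjusted p = 0.161, edgeR's quasi-likelihood test), 274 had an unadjusted p under 0.05 (4.15% of rows, higher, and 4.22%, lower), and DESeq2 called 46. Both LPS libraries were above both non-stimulated ones in 762 rows (23.3%) and below in 661 (20.2%). Here CPM refers to the counts of all classes. Scaling by the total count in place of TMM moved the median log2 fold change over these rows from -0.06 to 0.34. The rows count short reads from these longer RNAs, so a level here is that of fragments.

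Small nucleolar RNAs, which guide modification of ribosomal and spliceosomal RNA, were lower with LPS in 131 of 282 rows (46.5%) and higher in 21 (7.45%). Their median log2 fold change was -1.24, and it was -0.70 against NS1 and -1.47 against NS2, so both replicates gave the same direction. Their share of all counts was 3.23% in NS1, 8.57% in NS2, 4.69% in LPS1 and 3.98% in LPS2, where NS1 was the lowest library. Snord85, the most abundant over the means of both groups, counted 12777 and 12768 CPM without and 4997 and 1960.1 CPM with LPS. Gm23212 (2414, 19551, 4169 and 5011 CPM) and Snord104 (5660.3, 1684, 5517 and 2685 CPM), which led it in some libraries, overlapped between the groups. Against this direction, the snoRNA rows in the heat shock gene Hspa8 were higher: Snord14c counted 1137 and 583 CPM without and 3545 and 2607 CPM with LPS, and Snord14d had nearly the same counts and sequence. The smallest p in each direction belonged to Gm24916 in the nucleolar gene Gnl3 (191, 147, 1147 and 860.3 CPM, adjusted p = 0.262) and to Gm26493 in Cnot1 (6.81, 26.8, 1.502 and 0.867 CPM, adjusted p = 0.191).

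Small nuclear RNAs, parts of the splicing machinery, were lower in 114 of 159 rows (71.7%) and higher in 7, with a median log2 fold change of -1.57, which was -0.42 against NS1 and -1.80 against NS2. The abundant rows did not have that order. Of the 6 most abundant, Gm22710 (717, 107, 248 and 131 CPM), Gm26020, Rnu11 and Gm24871 overlapped and Rnu7 and Gm23763 were higher, so the lower rows are all less abundant ones. Many of these rows are near-identical gene copies that share reads, so the rows are not independent. Gm24136 was at 1.73 and 1.77 CPM without and at 0 in both LPS libraries, at least 5.38-fold lower (adjusted p = 0.217), and Gm24249 was at 0 without LPS and at 1.502 and 0.2 CPM with it, at least 1.72-fold higher. Among miscellaneous RNAs 27 of 71 rows were lower and 6 higher, but the median log2 ratio was 0.06 against NS1 and -1.55 against NS2, so that the direction rested on NS2. Rmrp, the RNA of a ribonuclease that processes ribosomal RNA, counted 547 and 639.6 CPM without and 221 and 89.7 CPM with LPS (log2 fold change -1.93, SE 0.75, adjusted p = 0.392). The Y RNA Rny3 overlapped at 125, 172, 142 and 162 CPM. In that class the smallest p among rows with higher and with lower values belonged to Gm24203 (6.05, 1.77, 7.36 and 24.5 CPM) and to Gm23037 (8.76, 48.1, 1.95 and 4.27 CPM), respectively.

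The direction for ribosomal RNA rows depended on the non-stimulated library. Their median log2 ratio was 0.59 against NS1 and -3.05 against NS2, and 122 of 128 rows overlapped. NS2 held 0.347% ribosomal RNA, against 0.00876% in NS1, 0.0423% in LPS1 and 0.0195% in LPS2. The smallest p-values were those of Gm25625 (no count without LPS, 2.25 and 0.400 CPM with it, at least 2.68-fold higher) and the 5S copy n-R5s15 (1.51, 20.8, 1.201 and 0.800 CPM).

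**Figure D5:**
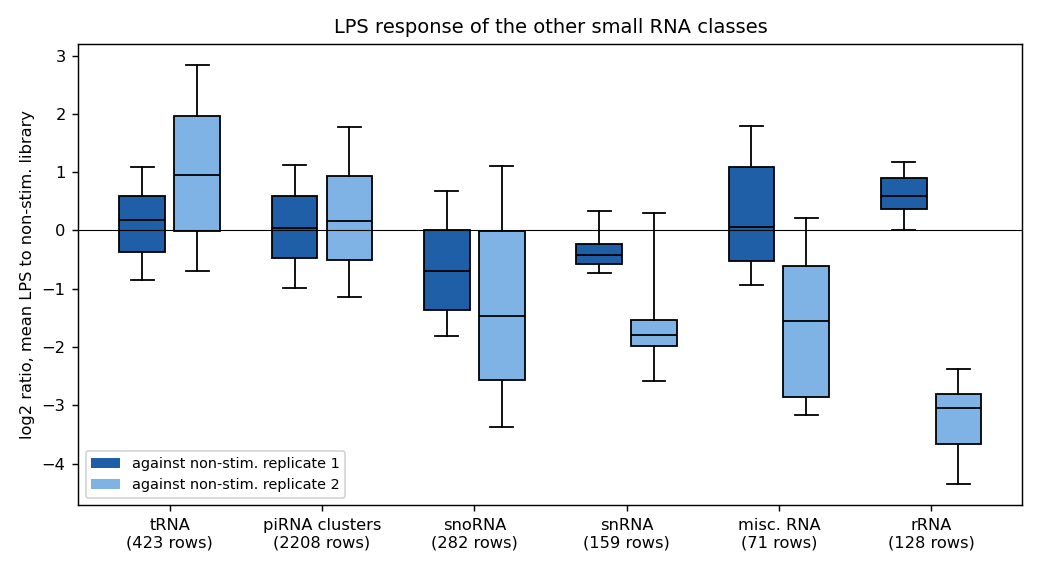
Log2 ratio of the mean LPS level to NS1 (dark boxes) and to NS2 (light boxes) for the rows tested of each class (vertical axis); boxes span the quartiles with the median as a line, and whiskers reach the 10th and 90th percentiles. The medians of snoRNA and snRNA are below 0 against both libraries, and that of rRNA is 0.59 against NS1 and -3.05 against NS2.

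Transfer RNA rows, which count fragments of the adaptors of translation, were higher in 163 of 423 (38.5%) and lower in 35 (8.27%), with a median log2 fold change of 0.40. By total count scaling it was 0.92, against the shift of all rows given above. Against NS1 the median was 0.18 and against NS2 0.96. Genes of 1 isotype share most of their sequence, so rows of an isotype are not independent and their counts are a description. Over all rows of these classes 23.3% were higher, and over transfer RNA rows 38.5%. All 10 tyrosine and all 7 phenylalanine rows were higher. So were 10 of 11 for histidine, 14 of 16 for glutamine, 16 of 18 for proline, 17 of 24 for arginine and 7 of 8 for tryptophan. For cysteine the count and the level differed in direction. There 41 of 57 rows were higher, while the rows summed to 6189 and 6710.0 CPM without and to 5418 and 3857 CPM with LPS. The dominant row, chr11.tRNA1444-CysGCA, was lower (3749.8, 5511, 2013 and 1464 CPM). The proline rows summed to 7800.0 and 8337 CPM in NS1 and NS2 and to 23430.0 and 11650.0 CPM in LPS1 and LPS2. In several other isotypes few rows were higher. None of 36 alanine, 20 glutamate or 14 asparagine rows was higher, and 1 of 21 for valine, 2 of 17 for threonine, 3 of 23 for serine and 3 of 29 for glycine were. For aspartate 14 of 16 rows were lower. The single most abundant row, chr5.tRNA1318-AlaTGC, counted 6047 and 15356 CPM without and 5443 and 5458 CPM with LPS. The smallest p among higher rows was that of chr13.tRNA999-IleTAT (4.32, 3.32, 13.8 and 13.3 CPM), which contains the microRNA gene Mir1983, and among lower rows that of chr13.tRNA62-LeuAAG (131, 506, 77.8 and 66.3 CPM).

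Rows named as piRNA clusters hold germline small RNA loci, whose PIWI proteins are not a known feature of B-cells, and they were higher in 560 of 2208 (25.4%) and lower in 351 (15.9%), near the 23.3% and 20.2% over all rows of these classes. Of 2389 such rows in the table, 184 contain an annotated small RNA gene on either strand. Those rows took 80.3%, 73.4%, 74.8% and 63.1% of the class counts in NS1, NS2, LPS1 and LPS2. Their reads need not come from the gene they contain. The smallest p of the whole table outside microRNA, piRNAclusterDB_123 on chromosome 11, counted 8.65, 7.31, 174 and 180.4 CPM (log2 fold change 4.47, SE 0.59, adjusted p = 0.161) and contains the microRNA gene Mir3063. It was the 1 row of these classes to pass with total count scaling. Some rows that span microRNA genes of the opposite strand were higher too. piRNAclusterDB_1628, across the miR-17~92 genes, counted 18.2 and 20.4 CPM without and 101 and 77.3 CPM with LPS. piRNAclusterDB_1234, across Mir15b and Mir16-2, counted 24.9 and 14.4 CPM without and 122 and 117 CPM with LPS. In the other direction stood piRNAclusterDB_290, with 17.7 and 24.8 CPM without and 2.85 and 1.33 CPM with LPS (adjusted p = 0.217).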

How the data were processed

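The deposited table gives read counts per small RNA row and library, which the authors did not normalize. Per the submitters' processing notes, reads were trimmed with cutadapt 1.2.1 and aligned with Bowtie2 to mm10. The counting program and the handling of reads with several matches are not given in the sources used here. Libraries were made from 1 µg RNA with 17 PCR cycles, and no molecular identifiers are mentioned. A row of another organism (2 counts) was left out. Depth was 3482540.0 to 15073103 counts per wt library.

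The counts were fitted with edgeR 4.0.16 in R 4.3.3 (limma 3.58.1): TMM, filterByExpr, and the two-sided quasi-likelihood F-test on 8 wt and 3'RR-deficient libraries with a mean per group, the contrast being LPS minus non-stimulated wt, and Benjamini-Hochberg adjustment at 0.05 over all rows tested. MicroRNA rows were fitted alone and the other classes in the whole table. The biological coefficient of variation was 72.4% and 58.1%. SE is the log2 fold change divided by the square root of F. Exact permutation of 2 against 2 libraries cannot go below p = 0.333, so none was used. Log2 ratios to single libraries used a prior count of 2. "Higher" and "lower" rows are those in which both LPS libraries lie on 1 side of both non-stimulated ones.

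Named were all calls, and the 10 most positive and 10 most negative mature microRNAs of at least 100 CPM without overlap. Also named were the 5 most abundant microRNAs per library, and for each other class the smallest p in each direction. Of 19 lists members were named, but not in every list, and not always the 2 most abundant. Other rows were named after their values were seen. The list of miR-34 and miR-449 had 1 row tested. Members, lists and tests were chosen with earlier results of these data known. Alternatives (DESeq2 1.42.0 size factors and Wald test, total count scaling, no filter, 10 CPM in 2 libraries, other library sets, replicate block, GC trend removed by loess, leaving out each library) were run, and leaving out both second non-stimulated libraries was added after the data were seen. The fits were tested on simulated data. Genes and hosts are those of GENCODE M21.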

Additional observations from a re-analysis of the deposited data

How the results depend on the processing

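The 5 microRNA calls became 10 with total count scaling, 50 without a filter, 103 with DESeq2's Wald test (60 higher, 43 lower), 20 with all 10 libraries, 48 after removal of a GC trend (30 higher, 18 lower of 497 rows with a sequence), 47 with that removal and a replicate block, and 79 without both second non-stimulated libraries (49 higher, 30 lower). They became 0 within all rows of the table and 3 with mature rows alone, where the hairpins were not tested. The count stayed within 1.5 times with DESeq2 size factors, 10 CPM in 2 libraries and the 4 wt libraries alone. Leaving out 1 library gave 0 to 64 calls, 0 without NS2, 0 without LPS1, 3 without LPS2 and 64 without NS1. With NS1, NS2, LPS1 or LPS2 left out, the lone library of its group was assumed to vary like the others. Whether the replicate numbers pair wt non-stimulated with wt LPS libraries is not known. The differences between replicates 2 and 1 correlated across rows with r = -0.055 between these conditions. That value cannot decide it, since the non-stimulated difference holds a split shared with the other genotype. Between the genotypes, the differences go together within the non-stimulated condition (r = 0.666), a split that the fit counts as spread. A term for it, added after the data were seen, was run for the difference between genotypes alone, since for the wt response it would leave the split out of the error. A replicate block within each genotype gave 38 microRNA calls (29 higher, 9 lower). It changed neither of the other 2 counts. The 0 calls among other classes became 1 with total count scaling, 73 without a filter and 46 with DESeq2's Wald test, and the difference between genotypes had 0 calls in every alternative run for it. Except where rows were removed, the cause of these shifts was not tested. For 28 named microRNA rows, 321 of 460 alternative values stayed on the same side of the threshold, 121 newly passed it and 18 no longer did. Their direction was fixed by how the rows were chosen. Each group holds 2 libraries, and NS2 was the shallowest. Whether depth set the number of calls was not tested.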

Other observations

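Rows with no count in 1 condition add to the named microRNAs. miR-6546-5p was without counts in both non-stimulated libraries, and its LPS level was at least 18.8-fold higher against a floor of 3 counts per library (adjusted p = 0.0833, edgeR's quasi-likelihood test), and miR-466h-5p in the Sfmbt2 cluster at least 10.1-fold (adjusted p = 0.114). In the other direction miR-125a-3p, the rare arm of miR-125a, had no count in either LPS library and was at least 11.5-fold lower (adjusted p = 0.215), and miR-935 at least 8.95-fold (adjusted p = 0.114). Some further hairpin rows were higher with LPS. The Mir181b-1 hairpin counted 0.0964 and 0 CPM without and 12.1 and 9.32 CPM with LPS (adjusted p = 0.0536), while the mature miR-181b-5p was lower in both LPS libraries (1284 and 1084 against 999 and 861 CPM). The Mir21a hairpin counted 41.5 and 19.5 CPM without and 184 and 187 CPM with LPS (adjusted p = 0.0833), and the Mir16-1 hairpin 8.09 and 3.97 CPM without and 87.8 and 32.1 CPM with LPS (adjusted p = 0.0833). These rows were named after their values were seen.

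GC content was compared without a test. Mature microRNAs higher in both LPS libraries had a median GC of 47.8% (130 rows with a sequence), those lower in both 52.4% (119 rows) and those that overlapped 47.6% (248 rows). The part of GC content in the response was not tested beyond the fit with the GC trend removed.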
